A study of Arabidopsis thaliana with 12 samples.

Results

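The members described here are Arabidopsis genes whose transcript signal was lower in both mutants deficient in nitrate reductase and close to wild type in noa1-2. They were chosen by 4 limits on the genotype means of log2 intensity: a Col-0 mean of at least 6, nia1nia2 minus Col-0 of at most -1, nia1nia2noa1-2 minus Col-0 of at most -0.8, and noa1-2 minus Col-0 within 0.5. Of 13513 probe sets listed with 1 gene, 6666 passed the Col-0 limit, 327 of these passed the nia1nia2 limit and 173 also passed the nia1nia2noa1-2 limit. The noa1-2 window removed 61 that lay below it and 4 that lay above it, and left 108. LHCB4.3, a light-harvesting protein of photosystem II, and AT5G18600, which encodes a glutaredoxin, also met the limits and were set aside with their families. That left 106 probe sets of 105 genes, since AT1G31690 was represented by 2 probe sets, and 105 of the 106 were annotated as protein coding, the exception being the pseudogene AT1G35612.

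Nitrate reductase converts nitrate to nitrite, the first step by which a plant turns nitrate into amino acids, and in Arabidopsis the enzyme is encoded by NIA1 and NIA2. Nitrite can in turn be reduced to nitric oxide (NO), a small signalling molecule. Loss of the enzyme therefore impairs a route to assimilated nitrogen as well as a route to NO. The nitrogen state of these seedlings was not measured here. NOA1, once named as an NO synthase, is a GTP-binding protein needed for normal chloroplasts, and its mutants also hold less NO.

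Transcripts were measured in whole seedlings on 12 Affymetrix ATH1 arrays, with 3 arrays, given as biological replicates, for each of Col-0 (the wild type), nia1nia2, noa1-2 and the triple mutant nia1nia2noa1-2. All mutants were in the Col-0 background. Seedlings of every genotype were 15 days old, had grown on MS medium with 1% sucrose under 16 h days (8 h dark), and were collected 5 h after dawn without further treatment. The labels numbered the nia1nia2 replicates 2 to 4 and the others 1 to 3. The mutations act in the whole plant and throughout its growth, so these values compare seedlings with different histories, and in whole seedlings fewer cells of a type and less RNA per cell cannot be told apart.

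The median intensity of an array lay between 75.6 and 86.2. The probe sets of NIA1, NIA2 and NOA1 were not linked to a gene in the table used here, so the mutations were not checked by their own transcripts. RCA, which marks leaf tissue, had means of 13.86, 13.45, 13.68 and 13.83 in Col-0, nia1nia2, nia1nia2noa1-2 and noa1-2, and the root gene PYK10 had means of 12.67, 12.86, 12.80 and 12.76. By limma RCA was lower in nia1nia2 by 0.40 (adjusted p = 0.00765), and so was FMA of the stomatal lineage, with means of 6.68, 6.08, 6.35 and 6.61 (adjusted p = 0.000948), while SPCH of the same lineage did not pass. The root gene EXPA7 (5.69, 5.26, 5.02 and 4.90) and the senescence gene WRKY53 (4.57, 5.33, 4.83 and 5.03) had means under 6 throughout and were not tested. The part of these markers in the members' values was not tested. Over the 6666 probe sets with a Col-0 mean of at least 6, the median difference from Col-0 was -0.12 in nia1nia2, -0.05 in nia1nia2noa1-2 and -0.04 in noa1-2, and centring each array on its median moved the first of these to -0.02.

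Among the members the median difference from Col-0 was -1.48 in nia1nia2, with a range of -2.61 to -1.02, which is 2.80-fold lower. In nia1nia2noa1-2 the median was -1.11 with a range of -2.32 to -0.80, or 2.15-fold lower, and in noa1-2 it was -0.14 with a range of -0.50 to 0.47. These differences chose the members and are given as a description. A fall of at least 4-fold was found for 14 members in nia1nia2 and for 4 in nia1nia2noa1-2. The limits on the Col-0 mean and on the falls keep faint wild-type transcripts out. Col-0 means of the members ran from 6.24 to 12.13 with a median of 8.61, beside 7.75 over the 6666 probe sets, and 23 had a mean of at least 10. In nia1nia2, 26 members had a mean under 6, the level that the study took as the edge of noise, and in nia1nia2noa1-2 12 did, so the size of these falls is less exact.

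**Figure D1:**
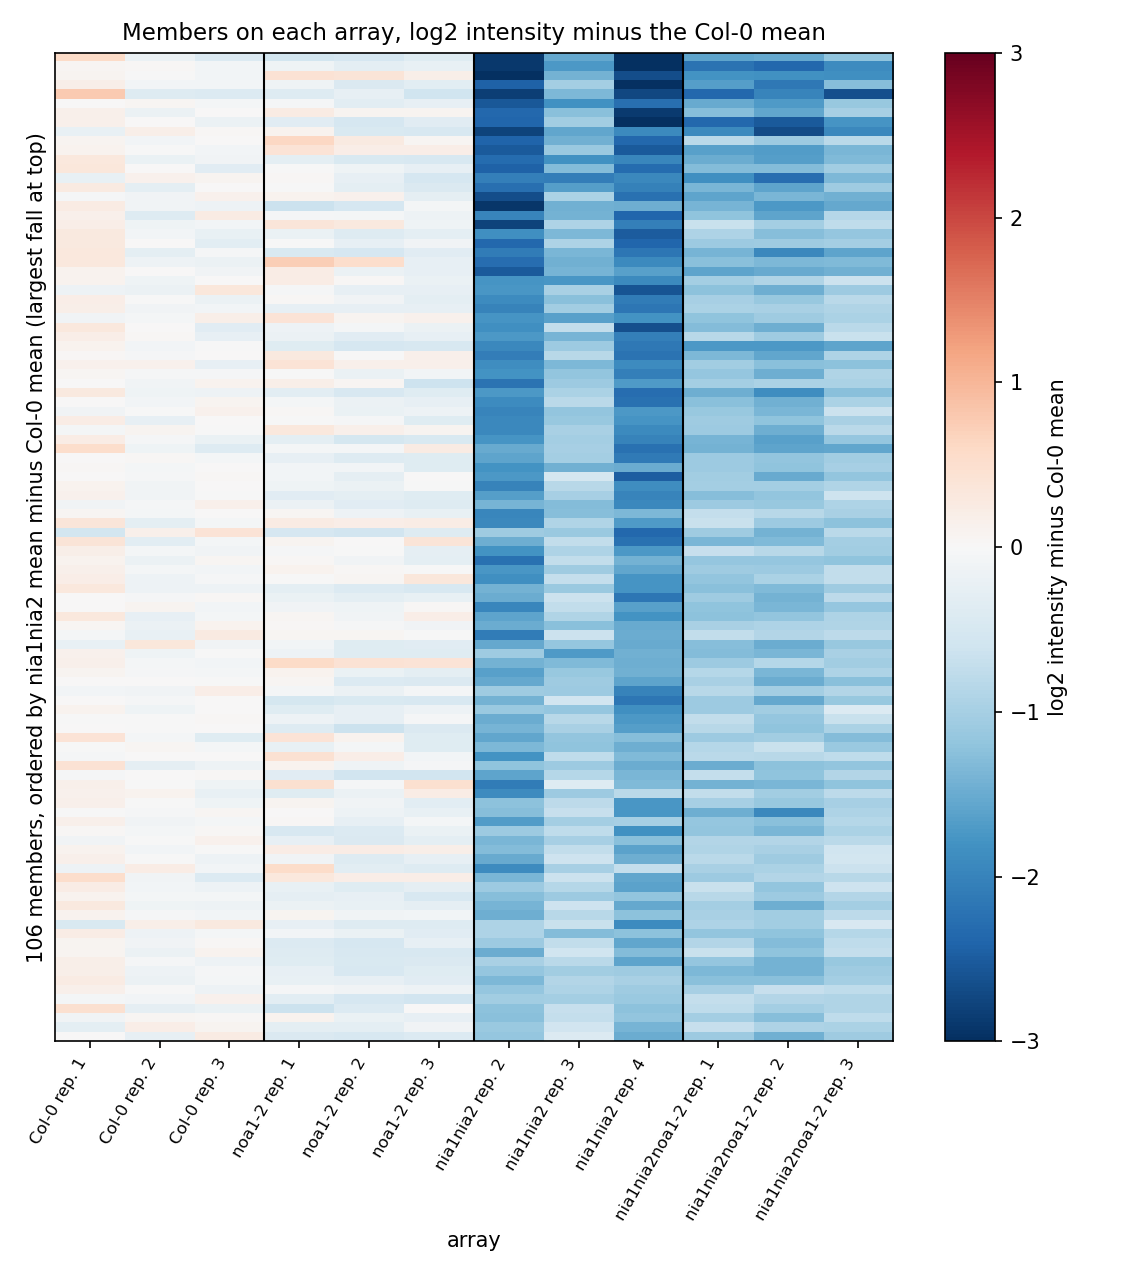
Log2 intensity minus the Col-0 mean (colour, blue lower) of the 106 members (rows, largest nia1nia2 fall at the top) on each of the 12 arrays (columns, grouped by genotype). The nia1nia2 and nia1nia2noa1-2 columns are blue throughout, the middle nia1nia2 column (replicate 3) is paler than replicates 2 and 4, and the noa1-2 columns stay within 0.74 of the Col-0 mean.

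The rule fixed that the genotype means were low, but not that every array was. All 3 nia1nia2 arrays lay below all 3 Col-0 arrays for 106 of 106 members, where 29.2% of the 7083 probe sets tested did so, and the same was true of the nia1nia2noa1-2 arrays for 106 members against 26.2%. Both held at once for 106 members, against 18%. The limits themselves favour such a separation, and nothing is read from these shares. For 105 members the 6 arrays of both mutants also lay below the 6 arrays of Col-0 and noa1-2, against 9.28% of all probe sets tested. The exception was AT4G01460, whose nia1nia2 arrays read 5.58, 6.33 and 5.26 beside noa1-2 arrays of 6.31, 6.26 and 6.34. The limits and the noa1-2 window favour this wider separation as well, and nothing is read from its share. A gap of at least 1 between the highest mutant array and the lowest Col-0 array was found for 34 members in nia1nia2 and 23 in nia1nia2noa1-2. The limits favour such gaps too, and no share over all probe sets was worked out, so nothing is read from these counts.

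**Figure D2:**
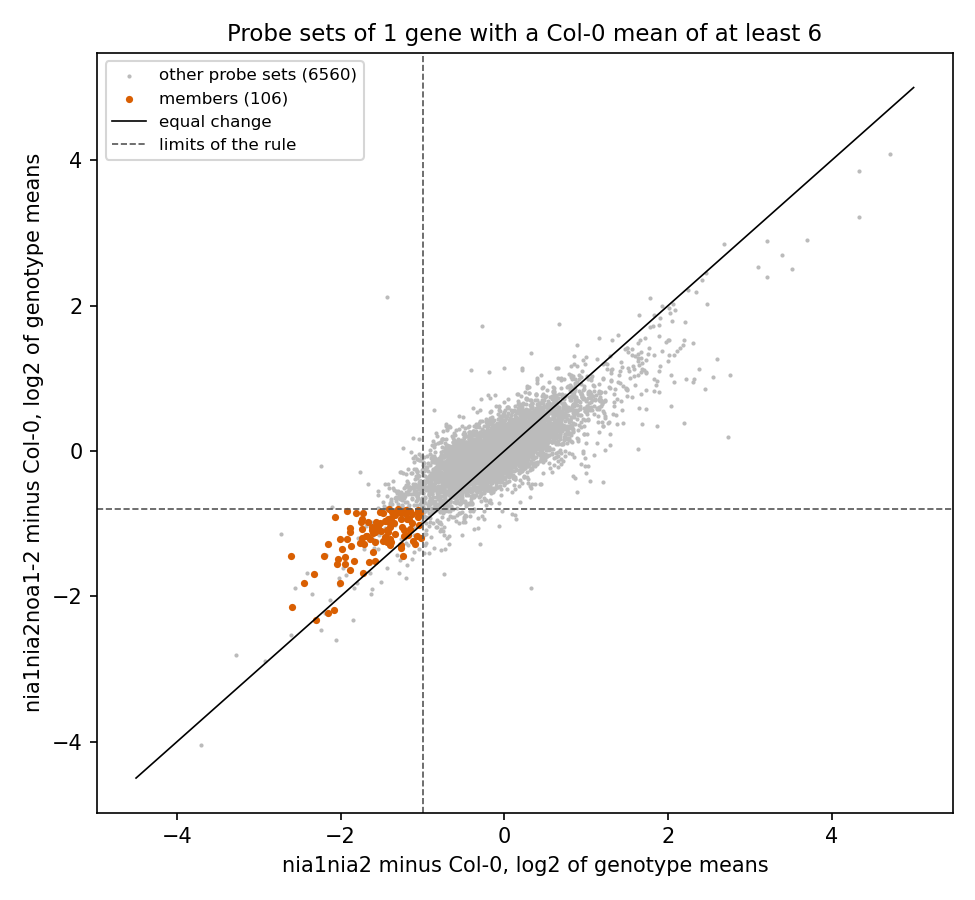
Log2 difference from Col-0 in nia1nia2 (x axis) and in nia1nia2noa1-2 (y axis) for the 6666 probe sets of 1 gene with a Col-0 mean of at least 6, with the 106 members in orange, the limits of the rule as dashed lines and equal change as a solid line. Most members lie above the solid line, where the fall is smaller in nia1nia2noa1-2, and both axes share the same Col-0 arrays.

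The limits cut through a continuous range of values. Next to the nia1nia2 limit, AT4G01460 was inside at -1.02 and AT5G27950 and AT1G20030 at -1.03 and -1.05, while AT5G63190, AT1G52720 and AT2G29300 were outside at -0.98 each. Next to the nia1nia2noa1-2 limit, AT3G10020 and AT1G74940 were inside at -0.80 and AT1G68780 at -0.81, while AT2G30600, AT5G53500 and AT5G48220 were outside at -0.80, -0.78 and -0.76. At the lower edge of the noa1-2 window, AT5G02550 was inside at -0.50 and AT1G31690 and AT3G62630 at -0.49, while AT4G14230, AT3G47380 and AT3G61210 were outside at -0.51, -0.51 and -0.52. At its upper edge, AT1G22570, AT2G25200 and AT3G15630 were inside at 0.47, 0.34 and 0.34, and AT3G15450, AT1G07050 and AT5G62360 were outside at 0.70, 0.76 and 0.94. By Col-0 mean, AT4G04630, AT2G37950 and AT3G49790 were inside at 6.24, 6.27 and 6.59, and CML30, AT1G22330 and AT5G45840 were outside at 5.99, 5.94 and 5.45.

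Of the 106 members, 13 had a gene name in the reference table and 93 had a locus number only. The named members fall into enzymes of redox and detoxification chemistry, proteins of photosynthesis and sugar metabolism, transcription factors and a few others. Roles are given for these 13, and the remaining members are described by their values.

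MSRB6, a methionine sulfoxide reductase that returns oxidised methionine in proteins to methionine, had the largest fall of all members in nia1nia2. Its log2 intensity was 10.55, 9.80 and 9.56 in Col-0, 7.07, 8.43 and 6.58 in nia1nia2, 8.38, 8.44 and 8.76 in nia1nia2noa1-2, and 9.41, 9.46 and 9.61 in noa1-2. The highest nia1nia2 array lay below the lowest Col-0 array by 1.13, and the mean was 6.11-fold lower in nia1nia2 and 2.72-fold lower in nia1nia2noa1-2. Its relatives gave other values. In limma's test across 7083 probe sets, MSRB5 was higher than Col-0 in nia1nia2 by 0.62 (SE 0.122, adjusted p = 0.00144) and in nia1nia2noa1-2 by 0.71 (SE 0.122, adjusted p = 0.00136). MSRB9, MSRB3 and MSRA5 differed from Col-0 by 0.54, -0.11 and -0.15 in nia1nia2 and did not pass the test.

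TAPX, the thylakoid-bound ascorbate peroxidase that removes hydrogen peroxide at the photosynthetic membrane, read 10.43, 10.38 and 10.47 in Col-0 and 8.93, 9.78 and 8.25 in nia1nia2. It read 9.35, 9.02 and 9.64 in nia1nia2noa1-2 and 10.23, 10.14 and 10.21 in noa1-2. The Col-0 and noa1-2 arrays were tight, and the nia1nia2 arrays spread over 1.53 without reaching either group. Its stromal counterpart SAPX had means of 8.33 in Col-0, 9.23 in nia1nia2, 9.79 in nia1nia2noa1-2 and 9.61 in noa1-2. By limma SAPX was higher in nia1nia2 by 0.89 (SE 0.177, adjusted p = 0.00141), in nia1nia2noa1-2 by 1.46 (SE 0.177, adjusted p = 0.000129) and in noa1-2 by 1.28 (SE 0.177, adjusted p = 0.000804). The 2 chloroplast peroxidases therefore moved in opposite directions in both nitrate reductase mutants.

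TRXF2, the plastid thioredoxin f2 that activates enzymes of carbon fixation in the light, read 11.08, 10.61 and 10.63 in Col-0, 9.35, 9.65 and 9.0 in nia1nia2, 9.53, 9.45 and 9.71 in nia1nia2noa1-2, and 10.49, 10.36 and 10.30 in noa1-2. The noa1-2 arrays also lay below all Col-0 arrays, by a smaller step. ATHM2, the other thioredoxin named among the probe sets tested, differed from Col-0 by -0.43 in nia1nia2 and did not pass limma's test (adjusted p = 0.169).

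GSTU18, a tau-class glutathione transferase of the family that couples glutathione to foreign and reactive compounds, read 9.46, 9.21 and 9.49 in Col-0, 7.91, 8.80 and 8.08 in nia1nia2, 8.71, 8.17 and 8.68 in nia1nia2noa1-2, and 9.01, 8.91 and 8.91 in noa1-2. The levels stepped down from Col-0 to noa1-2 and then to both nitrate reductase mutants, and the noa1-2 arrays lay above every nitrate reductase mutant array. Of the 7 tau-class transferases tested by limma, 3 were higher and 2, including GSTU18, were lower in nia1nia2. GSTU25 was higher by 1.67 (SE 0.207, adjusted p = 5.08e-05), GSTU16 by 0.96 (SE 0.261, adjusted p = 0.00982) and GSTU22 by 0.91 (SE 0.281, adjusted p = 0.0189), and GSTU26 was lower by 0.53 (SE 0.165, adjusted p = 0.0188).

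PAM68, a thylakoid membrane protein needed to assemble photosystem II, had nia1nia2 arrays within 0.16 of each other. It read 8.98, 8.74 and 8.89 in Col-0, 7.09, 7.12 and 6.96 in nia1nia2, 7.84, 7.96 and 8.23 in nia1nia2noa1-2, and 9.10, 8.91 and 8.66 in noa1-2. The 3 levels did not overlap: noa1-2 and Col-0 shared the top range, nia1nia2noa1-2 lay in between and nia1nia2 lay lowest. Of 3 light-harvesting genes that were named and tested, LHCB4.1 differed from Col-0 by -0.45 in nia1nia2 (SE 0.139, limma adjusted p = 0.0197) and LHCB4.2 by -0.71 (SE 0.128, limma adjusted p = 0.000766), beside -1.64 for LHCB4.3.

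ATSPS4F, a sucrose phosphate synthase that makes the precursor of sucrose, read 9.64, 9.08 and 9.28 in Col-0 and 7.76, 8.42 and 7.54 in nia1nia2. It read 8.11, 8.14 and 8.41 in nia1nia2noa1-2 and 9.40, 9.23 and 9.53 in noa1-2. AKINBETA1, a beta subunit of the SnRK1 kinase that senses low energy, read 8.54, 7.87 and 7.61 in Col-0, 6.49, 7.01 and 5.78 in nia1nia2, 6.60, 6.43 and 6.44 in nia1nia2noa1-2, and 7.94, 7.94 and 8.26 in noa1-2. For both genes noa1-2 stayed within the range of Col-0, and AKINBETA1 was lowered to a like level in both nitrate reductase mutants, with 96.0% of the nia1nia2 fall kept in nia1nia2noa1-2.

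AKINBETA1 also stands on a list of 25 genes known to be induced by sugar starvation, of which 5 had a probe set of 1 gene that was tested. By limma all 5 were lower in nia1nia2 and 3 were lower in nia1nia2noa1-2, where 26.7% and 11.3% of all 7083 probe sets tested were lower, and 2 of the 5 are members, chosen by these differences. The median over the 5 was -1.58 in nia1nia2, -1.14 in nia1nia2noa1-2 and 0.04 in noa1-2. The first and last of these are the values of AKINBETA1 itself, a member chosen by them. The value in nia1nia2noa1-2 is that of AT3G15450, which did not pass limma's test there (adjusted p = 0.224). No trend of the list is read from these medians. The other member was AT4G27450, which read 9.88, 8.72 and 8.69 in Col-0, 6.27, 7.75 and 6.36 in nia1nia2, 6.75, 7.12 and 6.46 in nia1nia2noa1-2, and 8.70, 8.85 and 8.51 in noa1-2. It had the largest fall of all members in nia1nia2noa1-2. AT3G15450 lay further below Col-0 in nia1nia2, at -2.73, but missed membership because noa1-2 lay above the window. MCCA and MCCB, the 2 subunits of the methylcrotonyl-CoA carboxylase that breaks down leucine, were lower in nia1nia2 by 0.66 (SE 0.115, adjusted p = 0.000604) and 0.65 (SE 0.126, adjusted p = 0.00118) in limma's test.

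Among the members were 3 transcription factors of different families. GIS, a zinc-finger protein that promotes trichome formation on inflorescence stems, read 7.74, 7.21 and 7.84 in Col-0, 5.62, 6.17 and 5.22 in nia1nia2, 6.38, 6.02 and 6.75 in nia1nia2noa1-2, and 7.57, 7.54 and 7.44 in noa1-2. DEWAX, an AP2/ERF protein that represses the synthesis of cuticular wax, read 10.56, 10.36 and 10.47 in Col-0, 8.46, 9.63 and 8.59 in nia1nia2, 9.44, 9.44 and 9.56 in nia1nia2noa1-2, and 10.33, 10.28 and 10.44 in noa1-2. TCP15, a class I TCP factor that acts in cell division and growth, read 7.52, 7.43 and 7.52 in Col-0, 6.39, 6.73 and 5.67 in nia1nia2, 6.30, 6.12 and 6.55 in nia1nia2noa1-2, and 7.02, 7.08 and 7.29 in noa1-2. Of these 3, DEWAX and TCP15 had nia1nia2 arrays on both sides of the other mutant. For both, replicate 3 lay above all 3 nia1nia2noa1-2 arrays. Replicates 2 and 4 lay below all of them for DEWAX, and replicate 4 did for TCP15. By genotype means TCP15 was lowered alike in both mutants, and its noa1-2 arrays lay below all Col-0 arrays.

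Fes1B, whose yeast relative Fes1 releases nucleotide from the Hsp70 chaperone, was among the 4 largest falls in both mutants. It read 9.06, 9.05 and 8.92 in Col-0, 6.12, 7.28 and 5.86 in nia1nia2, 6.79, 6.66 and 7.12 in nia1nia2noa1-2, and 8.87, 8.71 and 8.79 in noa1-2. Its mean was 6.02-fold lower in nia1nia2 and 4.45-fold lower in nia1nia2noa1-2. KICP-02, a kinesin-like motor protein, read 6.87, 6.94 and 7.14 in Col-0, 5.58, 5.69 and 5.05 in nia1nia2, 5.89, 5.85 and 6.05 in nia1nia2noa1-2, and 6.80, 6.64 and 6.60 in noa1-2. SAMTL, named as a transporter-like protein for S-adenosylmethionine, read 8.26, 8.24 and 8.44 in Col-0, 7.27, 7.30 and 7.21 in nia1nia2, 7.61, 7.43 and 7.40 in nia1nia2noa1-2, and 7.99, 7.81 and 7.75 in noa1-2. SAMTL had the smallest spread over the nia1nia2 arrays of all members, and its arrays formed 4 levels that did not overlap.

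**Figure D3:**
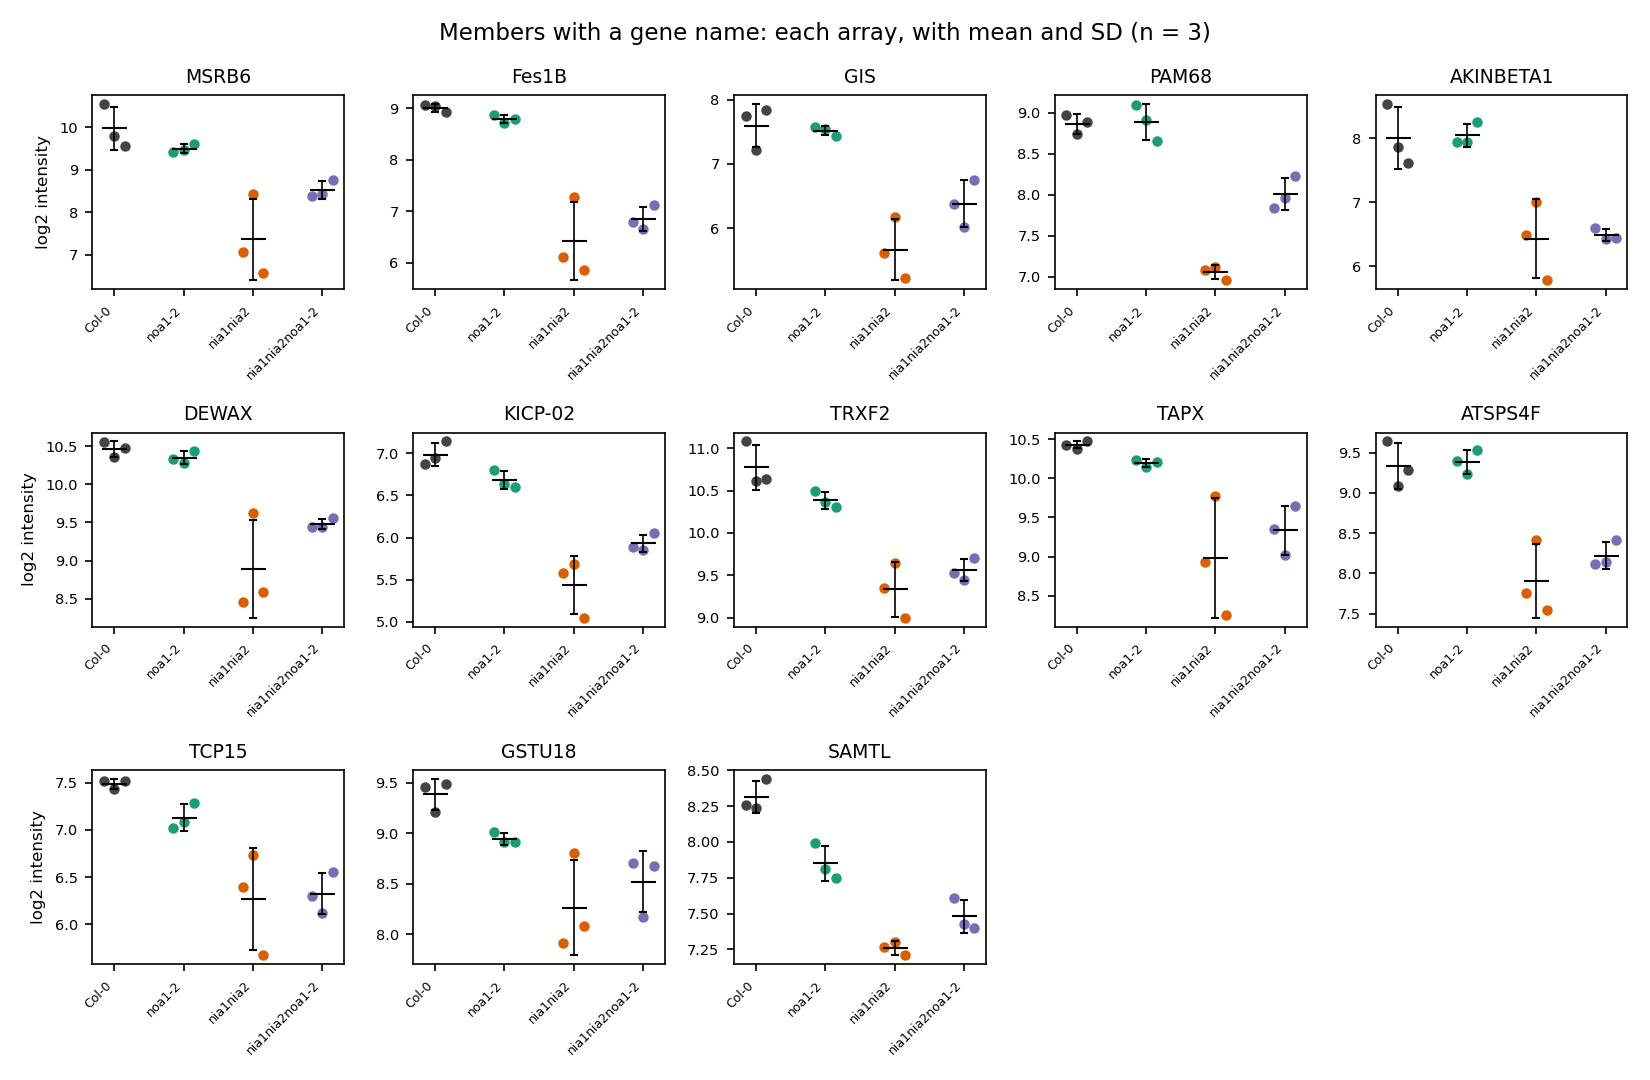
Log2 intensity of the 13 members with a gene name on each array (points, replicates from left to right) with the mean and SD of each genotype (black, n = 3). In every panel the highest nia1nia2 point is replicate 3, and each panel has its own y axis, which does not start at 0.

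Among the members known by locus number, the largest falls in nia1nia2 were those of AT3G15630, AT1G75460, AT4G27450, AT3G22210, AT3G09580, AT5G02160, AT2G39920 and AT3G22150, between -2.45 and -2.07. AT3G15630 read 8.83, 8.75 and 8.68 in Col-0 and 5.48, 7.33 and 6.09 in nia1nia2, then 6.95, 6.93 and 6.91 in nia1nia2noa1-2 and 9.19, 9.14 and 8.94 in noa1-2. AT5G02160 read 12.01, 11.86 and 11.68 in Col-0, 9.48, 10.81 and 8.80 in nia1nia2, 9.49, 9.32 and 10.07 in nia1nia2noa1-2, and 11.52, 11.34 and 11.50 in noa1-2. These 2 genes differed in noa1-2, where AT3G15630 lay above all its Col-0 arrays and AT5G02160 below all of its own. AT2G39920 read 7.54, 7.95 and 7.80 in Col-0, 4.99, 6.21 and 5.86 in nia1nia2, 5.85, 5.07 and 5.82 in nia1nia2noa1-2, and 7.88, 7.30 and 7.28 in noa1-2. AT5G24490, the member with the highest Col-0 mean, read 12.24, 12.11 and 12.04 in Col-0, 9.62, 11.01 and 9.61 in nia1nia2, 10.50, 10.46 and 10.76 in nia1nia2noa1-2, and 12.55, 12.33 and 12.34 in noa1-2. The 10 largest falls in nia1nia2noa1-2 were those of AT4G27450, AT5G02160, AT2G39920, Fes1B, AT1G48330, AT3G15630, AT1G75460, AT1G56220, AT1G09390 and AT5G24490, between -2.32 and -1.56.

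The 3 nia1nia2 arrays differed in how far the members were lowered. Measured from the Col-0 mean, the median over the 106 members was -1.74 on nia1nia2 replicate 2, -1.03 on replicate 3 and -1.78 on replicate 4. Replicate 3 was alone the highest nia1nia2 array for 97 of 106 members (91.5%), where it was so for 33.9% of the 6666 probe sets with a Col-0 mean of at least 6. A value of -1 or lower was reached by 103 members on replicate 2, by 58 on replicate 3 and by 102 on replicate 4. Replicate 3 showed a median of 57.4% of the fall seen on the mean of the other 2 arrays, with a range of 22.1% for AT2G37130 to 136% for AT3G18500.

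The step between replicate 3 and the mean of the other 2 was largest for AT1G75460, at 1.94, whose nia1nia2 arrays read 7.94, 9.34 and 6.86 beside 10.54, 10.29 and 10.28 in Col-0. It was 1.67 for AT5G02160, 1.61 for MSRB6 and 1.56 for AT4G19530. The 9 members in which replicate 3 was not alone the highest were AT4G17810, AT1G31690 (1 of its 2 probe sets), AT4G22212, AT1G75190, AT3G18500, AT3G17640, AT1G34570, AT1G48330 and AT2G01870. The median SD over 3 arrays was 0.483 in nia1nia2 for the members and 0.252 for the 6666 probe sets, and it was 0.188 and 0.114 in nia1nia2noa1-2, 0.154 and 0.115 in Col-0 and 0.123 and 0.106 in noa1-2.

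**Figure D4:**
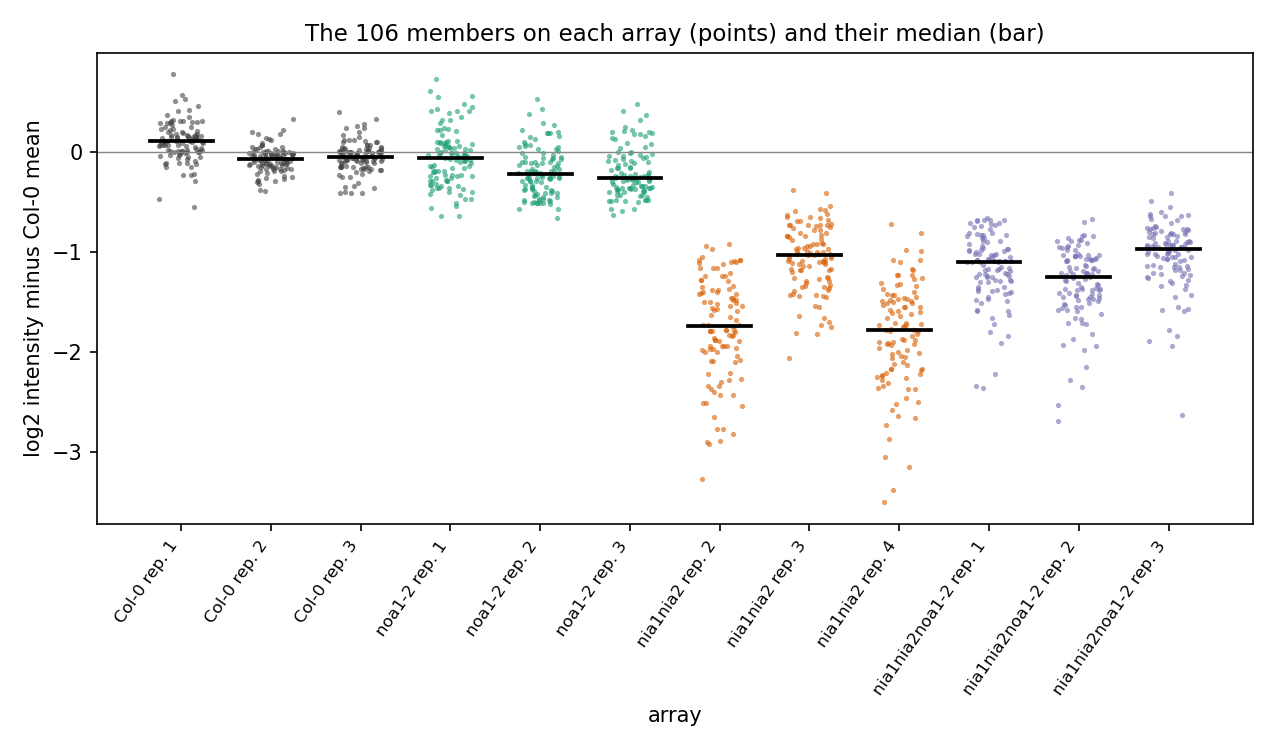
Log2 intensity minus the Col-0 mean of the 106 members (points) on each of the 12 arrays, coloured by genotype, with the median as a black bar. The median is -1.74, -1.03 and -1.78 on the nia1nia2 arrays and between -1.25 and -0.97 on the nia1nia2noa1-2 arrays.

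The weaker change on replicate 3 was not particular to the members. It was seen again in 60 probe sets that met the limits for both nitrate reductase mutants but lay below the noa1-2 window, with medians of -1.57, -0.99 and -1.91 on nia1nia2 replicates 2, 3 and 4. In 129 probe sets that met the nia1nia2 limit with nia1nia2noa1-2 above its own limit, the medians were -1.2, -0.94 and -1.34. In 101 probe sets chosen by the same limits with the sign turned, the medians were 1.62, 1.33 and 1.89, and replicate 3 was alone the lowest in 76.2%. Over the 6666 probe sets the medians were -0.16, -0.11 and -0.07. On the 7083 probe sets tested, limma's array weights were 0.602, 0.341 and 0.142 for replicates 2, 3 and 4, so the lowest was that of replicate 4. All 9 other arrays had weights of 0.812 or more.

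**Figure D5:**
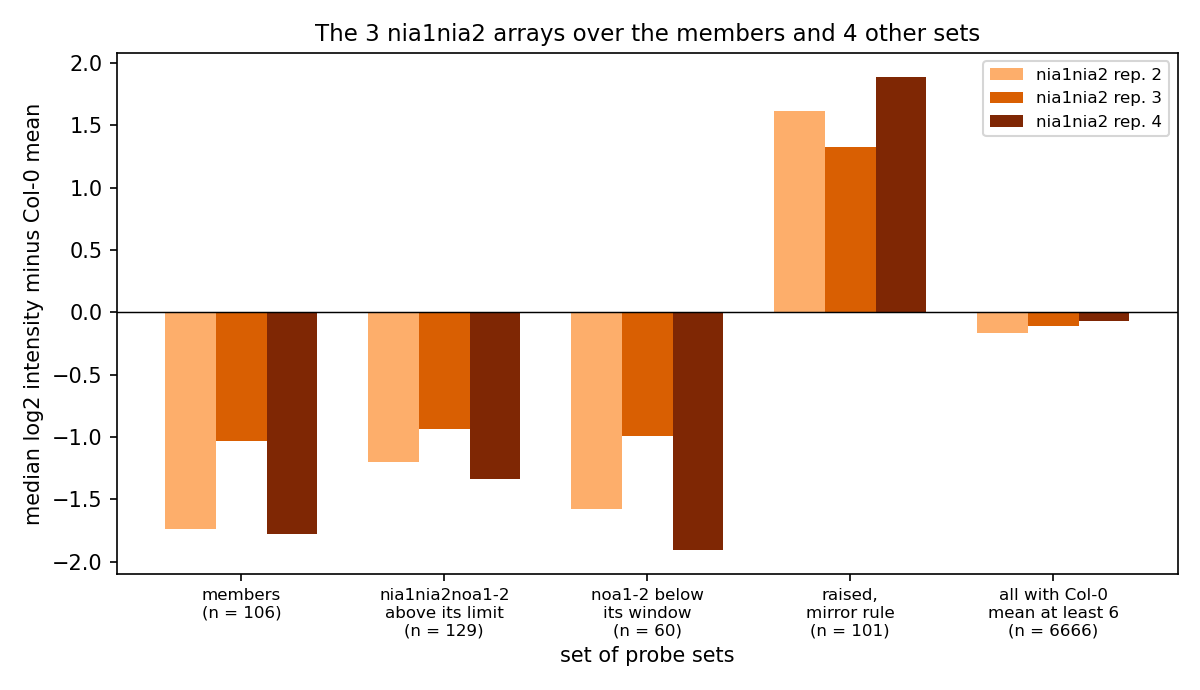
Median log2 intensity minus the Col-0 mean on the 3 nia1nia2 arrays (bars, starting at 0) for the members, for 129 probe sets with nia1nia2noa1-2 above its limit, for 60 with noa1-2 below its window, for 101 raised probe sets by the mirrored limits, and for all 6666. The bar of replicate 3 is the shortest in each of the 4 chosen sets.

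The nia1nia2noa1-2 arrays were closer to each other. Their medians from the Col-0 mean were -1.10, -1.25 and -0.97 on replicates 1, 2 and 3. Replicate 2 was alone the lowest for 73 members (68.9%) and replicate 3 alone the highest for 71 (67.0%), against 34.8% and 30.2% of the 6666 probe sets. Replicate 1 was alone the highest wild-type array for 68 members (64.2%) and the highest noa1-2 array for 76 (71.7%), against 33.5% and 36.3%. Over the 129 probe sets with nia1nia2noa1-2 above its limit these shares were 55.8%, 53.5%, 56.6% and 60.5% in the same order. Over the 60 below the noa1-2 window they were 63.3%, 48.3%, 61.7% and 33.3%. Each array was also left out in turn, members were chosen again from the other 11, and the array left out was then read for those members. With nia1nia2 replicate 3 left out, 122 members were chosen, 106 of them the same, and on the array left out all 122 lay below the Col-0 mean, 58 of them at -1 or lower, with a median of -0.99. With replicate 2 or 4 left out, 99 and 97 members were chosen and their medians on the array left out were -1.74 and -1.79. With nia1nia2noa1-2 replicate 1, 2 or 3 left out, the medians on it were -1.10, -1.33 and -0.94 over 102, 94 and 110 members. Every member chosen without a nitrate reductase mutant array lay below the Col-0 mean on that array. The same Col-0 arrays chose these members and set that mean, which favours a low reading. No share over all probe sets is given beside it, and it is a description only.

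The members kept a median of 73.7% of their nia1nia2 fall in nia1nia2noa1-2, with a range of 42.8% to 118%. The nia1nia2noa1-2 mean was the higher of the 2 in 96 members and the lower in 10, with a median difference of 0.39 and a range of -0.20 to 1.17, beside a median of 0.08 over the 6666 probe sets. The limits favour this direction, since they ask for -1 in nia1nia2 and -0.8 in nia1nia2noa1-2. With these 2 limits swapped, 71 probe sets met the rule, the difference was above 0 in 57 of them (80.3%) and its median was 0.31. Of these 71, 67 were the same members, and all were still chosen by a low nia1nia2 mean, which favours a difference above 0. The swap therefore cannot separate the direction from the choice of members.

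By limma, 20 members were higher in nia1nia2noa1-2 than in nia1nia2 and 0 were lower, where 10.1% and 5.21% of all probe sets tested were. The rule used both genotype means, so the calls among members are a description. The 3 arrays of nia1nia2 lay below the 3 of nia1nia2noa1-2 for 24 members, against 17.7% of all probe sets tested, and above them for 0 members, against 9.81%. The difference depended on which nia1nia2 array was read: the nia1nia2noa1-2 mean lay above the mean of nia1nia2 replicates 2 and 4 by a median of 0.61, and differed from replicate 3 by a median of -0.09, with 63 members higher on replicate 3. Without nia1nia2 replicate 3, 62 members were called higher in nia1nia2noa1-2, and 13.5% of all probe sets were. On the 6 arrays of the pair alone 1 member, PAM68, was called, beside 0.861% of all. Leaving out nia1nia2 replicate 2 or nia1nia2noa1-2 replicate 1 or 3 left 6 each, beside 6.69%, 4.23% and 5.40% of all.

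The member with the smallest adjusted p was PAM68, whose difference between the 2 mutants was 0.95 (SE 0.139, limma adjusted p = 0.00197). AT3G22150 read 5.05, 6.0 and 5.09 in nia1nia2 and 6.64, 6.36 and 6.63 in nia1nia2noa1-2, a difference of 1.16 (SE 0.220, limma adjusted p = 0.00571). AT5G56850 read 5.96, 6.31 and 5.64 and then 6.87, 6.62 and 7.03, a difference of 0.87 (SE 0.172, limma adjusted p = 0.00691). In each of these 3 the arrays of the 2 mutants did not overlap. For MSRB6 and AT1G23390 the differences were as large, 1.17 and 1.10, but nia1nia2 replicate 3 lay within the nia1nia2noa1-2 range and the adjusted p by limma was 0.0473 and 0.0416. AT1G23390 read 8.43, 10.29 and 9.15 in nia1nia2 and 10.53, 10.19 and 10.44 in nia1nia2noa1-2. AT3G09580, with the fifth largest difference at 0.88, did not pass (limma adjusted p = 0.0628), and KICP-02, at 0.49, was the third named member to pass.

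At the other end, the nia1nia2noa1-2 mean differed from the nia1nia2 mean by -0.20 to -0.11 in 6 members, none of which passed the test. These were AT3G28220, AT2G37950, AT4G01460, AT1G73750, AT2G39920 and AT1G80180. AT3G28220 read 9.19, 9.79 and 8.72 in nia1nia2 and 9.0, 8.54 and 9.55 in nia1nia2noa1-2, 2 groups that overlap.

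The 4 genotypes also allow a test of whether losing nitrate reductase lowered a member by the same amount with and without NOA1, as the departure from additivity of the log2 changes. For 5 members the fall was smaller in the noa1-2 background by limma and for 0 it was larger, where 2.47% and 1% of all probe sets tested were. They were AT5G56850 at 1.13 (SE 0.243, adjusted p = 0.0243), AT1G12250 at 0.94 (SE 0.228, adjusted p = 0.0390), PAM68 at 0.93 (SE 0.196, adjusted p = 0.0225), SAMTL at 0.68 (SE 0.157, adjusted p = 0.0308) and AT3G60380 at 0.67 (SE 0.170, adjusted p = 0.0484). The rule used the means of all 4 genotypes that enter this contrast, and the choice by a low nia1nia2 mean favours values above 0 here too. The calls among members are therefore given as a description. Without nia1nia2 replicate 3 the count was 55, beside 7.33% of all probe sets tested. Without Col-0 replicate 1 or noa1-2 replicate 2 or 3 it was 0, beside 1.47%, 0.762% and 0.831%.

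The noa1-2 values are set against the same Col-0 arrays that chose the members, so a low value here is favoured by the rule, and they are given as a description. The 3 noa1-2 arrays lay below the 3 Col-0 arrays for 33 members and above them for 6, where 21.1% and 19.6% of all probe sets tested did so. By limma 1 member, SAMTL, was lower in noa1-2 and 1, AT1G22570, was higher, beside 4.05% and 4.98% of all. The lower count was not stable. It was 19 on the 6 arrays of the pair (11.4% of all), 24 with array weights (17.8%) and 8 with the replicate block (7.72%), and leaving out 1 array gave 0 to 4, with 4 without nia1nia2 replicate 3 or 4 and 0 without Col-0 replicate 1 or 3 or noa1-2 replicate 2 or 3. The median over members was -0.06, -0.22 and -0.25 on noa1-2 replicates 1, 2 and 3.

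Both probe sets of AT1G31690 met the rule. One read 8.04, 8.73 and 8.99 in Col-0, 7.51, 7.48 and 6.24 in nia1nia2, 7.52, 7.16 and 7.78 in nia1nia2noa1-2, and 8.08, 8.02 and 8.19 in noa1-2. The dimmer one read 6.41, 7.06 and 7.16, then 5.96, 6.20 and 5.00, then 5.94, 5.84 and 6.39, and then 6.62, 6.5 and 6.49. The array order was the same in Col-0 and in nia1nia2noa1-2, and nia1nia2 replicate 4 was the lowest array for both, with Col-0 replicate 1 only 0.02 above the highest nia1nia2noa1-2 array on the dimmer one.

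The 104 protein-coding member genes lay on all 5 chromosomes, 33, 15, 24, 16 and 16 of them on chromosomes 1 to 5. AT2G29290 and AT2G29310 had 1 protein-coding gene between them, AT2G29300, which itself missed the nia1nia2 limit by a small margin at -0.98 and lay at -0.91 in nia1nia2noa1-2. AT2G29290 read 10.47, 10.40 and 10.45 in Col-0 and 8.36, 9.60 and 8.23 in nia1nia2, and AT2G29310 read 10.37, 10.16 and 10.13 and then 8.48, 9.15 and 8.67. KICP-02 and AT3G50270 had 2 genes between them. Of 63 directly neighbouring genes with a Col-0 mean of at least 6, 11 (17.5%) lay at -0.8 or lower in nia1nia2, a share that was 8.23% over 6621 genes. None of the 63 was itself a member, and the limit of -0.8 was chosen after the values were seen.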

How the data were processed

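RMA background correction and normalization of the raw array files was done by the authors in R with affy, on a custom chip definition per the methods, and limma is listed in the submitters' processing notes with no version. The deposited values are linear intensities under Affymetrix probe-set names, whose definition file is not stated in the sources used here, and they were converted to log2. With 3 arrays per genotype, precision is limited by their number. The 22810 probe sets comprised 64 controls, 13513 with 1 gene in the annotation table, 503 with several and 8730 with none. RefSeq's TAIR10.1 table gave names, biotypes and gene order for 13436 of the 13513. AT5G18600 was left out as a glutaredoxin on the study's naming and not from this table. No sequence was used here. 0 array columns were left unused.

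Members were chosen on genotype means, and members and gene lists were chosen with earlier results of these data known. The 7083 probe sets of 1 gene with a mean of at least 6 in at least 1 genotype entered 1 limma fit of all 12 arrays (limma 3.58.1, R 4.3.3, 8 residual degrees of freedom), adjusted by Benjamini-Hochberg with a threshold of 0.05. The fitting code was tested on simulated data. Python (3.11.15) with numpy 2.4.6, pandas 2.3.3 and, for figures, matplotlib 3.10.9 did the rest. Members named in the text were the 10 largest falls in each mutant, the 5 highest and 5 lowest in nia1nia2noa1-2 minus nia1nia2, those next to each limit, those with a gene name, on a list or with a second probe set. AT5G56850, AT1G12250, AT3G60380, AT4G19530, AT2G37130, AT3G18500, AT1G35612, the members in which nia1nia2 replicate 3 was not the highest, the relatives of named members, the like sets and the chromosomal neighbours were added after their values were seen. Alternatives changed each limit, the scaling, the filter, the test, the replicate block and each array.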

Additional observations from a re-analysis of the deposited data

Results flagged for a closer look

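For 5 members the fall seen when the nia1nia2 mutations are added differed between the wild-type and the noa1-2 background, by limma's test of the difference itself. The fall was smaller with noa1-2 by 1.13 log2 units for AT5G56850, 0.943 for AT1G12250, 0.933 for PAM68, 0.683 for SAMTL and 0.67 for AT3G60380. AT1G12250 read 7.67, 8.16 and 8.02 in nia1nia2 and 8.5, 8.32 and 8.65 in nia1nia2noa1-2, and AT3G60380 read 5.85, 6.23 and 5.97 and then 6.34, 6.35 and 6.41, without overlap in either. Groups of 3 arrays are too small to single out one array by its distance from the others. Over all probe sets tested 2.47% departed in this direction. Members were chosen by the same genotype means, and a low nia1nia2 mean favours this direction, so the calls are a description. None of the 5 calls was left without Col-0 replicate 1 or noa1-2 replicate 2 or 3.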

How the results depend on the processing

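The count of 106 members was within 1.5 times under other Col-0 limits, other nia1nia2 limits, a looser nia1nia2noa1-2 limit, narrower or wider noa1-2 windows, both scalings, medians in place of means and the mean over probe sets of a gene. It was 67 with the nia1nia2noa1-2 limit at -1, which with the nia1nia2 limit kept puts both limits at -1, and 170 with no noa1-2 window. Leaving out 1 array gave 94 to 122 members. The genes behind these counts were not all the same. Of the 106, 88 were kept with medians in place of means, 97 with median centring and 101 with quantile normalization. Between 90 (without Col-0 replicate 1) and 106 (without nia1nia2 replicate 3) were kept when 1 array was left out. The swapped limits, both limits at -1 and the mirrored limits were chosen after seeing the data. For the 13 named members all 52 differences from Col-0 under the 2 scalings were counted as unchanged against the spread between replicates. SAMTL nevertheless crossed the nia1nia2 limit, from -1.05 to -0.95 with median centring and -0.99 with quantile normalization. With centring, the nia1nia2 differences of SAMTL and PAM68 moved by more than the SD of their nia1nia2 arrays alone, 0.046 and 0.085.

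The 20 members called higher in nia1nia2noa1-2 than in nia1nia2 became 1 with the 6 arrays of the pair, 13 without the filter, 8 with median centring and 13 with quantile normalization. The methods' t-test gave 14 at an unadjusted p under 0.05 and 0 after Benjamini-Hochberg. The 5 departures from additivity became 2 with median centring and 25 with array weights. Leaving out 1 array gave 6 to 62 members for the first count and 0 to 55 for the second. The highest of both came without nia1nia2 replicate 3. For the first, the lowest came without nia1nia2 replicate 2 or nia1nia2noa1-2 replicate 1 or 3, and counts of 11 to 13 came without nia1nia2noa1-2 replicate 2, Col-0 replicate 2 or 3 or noa1-2 replicate 1 or 2. For the second, 0 came without Col-0 replicate 1 or noa1-2 replicate 2 or 3, and 11 without nia1nia2 replicate 4. Leaving out any other array except nia1nia2 replicate 3 gave 1 to 3. The cause was not tested.

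The labels' replicate numbers were not taken to pair the samples: deviations of same-numbered arrays correlated at -0.11 to 0.28 with a median of -0.01, and those of other arrays at -0.35 to 0.36. With the number as a replicate block, 10 members were called higher in nia1nia2noa1-2 than in nia1nia2 and 2 lower, and 10 departed from additivity.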

Other observations

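Beyond the named probe sets, 101 of the 9233 that were not linked to 1 gene met the same limits, 99 of them listed with no gene and 2 with several. The probe set 261979_at had the largest fall, from a mean of 12.38 in Col-0 to 6.81 in nia1nia2 and 5.41 in nia1nia2noa1-2, beside 12.06 in noa1-2. The next were 267265_at at 9.26, 5.61, 6.10 and 9.04 in the same order, and 253971_at at 12.29, 9.05, 9.84 and 12.06. These 3 falls in nia1nia2 were larger than that of any member. Since the probe sets of NIA1 and NIA2 were likewise not linked to a gene, the mutated genes themselves could be among these 101, which was not tested.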
